A study of Mus musculus with 20 samples.

Results

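Marker genes of the nephron segments were followed in islet grafts that had grown under the kidney capsule of mice. The markers were 43 genes that are textbook transcripts of the proximal tubule, the loop of Henle, the distal tubule, the collecting duct and the podocyte, together with genes of several segments. Each gene was read from a probe set that carries its symbol alone, and from the brightest such probe set, averaged over the 20 arrays, where there were several. Of the 43 genes, 42 had such a probe set, among 19938 genes on the array. The brush border peptidase gene Ggt1 had none. The measured genes comprised 28 of the proximal tubule, 2 of the loop of Henle, 3 of the distal tubule, 3 of the collecting duct, 3 of several segments and 3 of the podocyte.

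All samples came from mice on the C57bl6/J background and were profiled on Affymetrix MoGene 1.0 ST arrays. Non-transplanted pancreatic islets of female mice were taken in the non-pregnant state (islets NP, n = 4) or at day 12.5 of pregnancy (islets P12.5, n = 4). Islets of female donors were recovered as grafts from NP female hosts (n = 3) and from P12.5 female hosts (n = 3), and islets of male donors likewise from NP (n = 3) and P12.5 (n = 3) female hosts. The study made the hosts of all grafts diabetic with streptozotocin and placed the islets under the capsule of the left kidney, so every graft grew against kidney tissue of a female animal whatever the sex of its donor. No streptozotocin is described for the donors of the non-transplanted islets, and the labels mark the arrays of those islets as data analysed before. Treatment, array batch and transplantation cannot be told apart in any difference between grafts and islets. The labels call the samples biological replicates without naming animals, so a p-value here sets a difference against the spread of these samples only. The arrays had medians of 5.9 to 6.0 on the log2 scale, replicates of a group correlated with Pearson's r of 0.971 to 0.989 over probe sets, and no pair of arrays held identical values. In a bulk sample, fewer cells of a type and less RNA per cell cannot be told apart.

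The nephron filters plasma at the podocyte-lined glomerulus and then modifies the filtrate along a tube of specialised epithelium. The proximal tubule reclaims most filtered phosphate, glucose, amino acids and proteins, secretes organic anions and carries out gluconeogenesis. The loop of Henle and the distal tubule take up salt through separate cotransporters, and the collecting duct sets the final water content through aquaporins. Proximal tubules lie in the outer cortex, the part of the kidney next to the capsule, and collecting ducts run from the cortex into the medulla. Islets do not normally express most of these genes. Gatm, Calb1, Kl and Podxl are also known from islets or their vessels, and stood at mean log2 levels of 9.01, 7.11, 7.45 and 7.97 in the islet arrays.

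Tubule markers were higher in grafts than in islets, and how many were called differed by segment. Across the 12 grafts against the 8 islet arrays, limma called 30 of the 42 markers up and 1 down at an adjusted p under 0.05 and at least 1.5-fold, against 4.99% of all 35511 probe sets called up and 3.25% called down. The markers and the other gene lists used below were chosen with earlier results of these data known. Counts of called genes therefore describe the lists and are no independent test of them. Of the proximal tubule genes 24 of 28 rose, as did both genes of the loop of Henle, 1 of 3 distal tubule genes and 2 of 3 genes of several segments. None of the 3 collecting duct genes passed, with an unadjusted p under 0.05 for 0 of them. The median log2 difference, grafts minus islets, was 1.52 over the 42 markers and -0.07 over all probe sets. For 20 markers every graft array lay above every islet array, while 4.57% of all probe sets had groups that did not overlap in either direction.

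**Figure D1:**
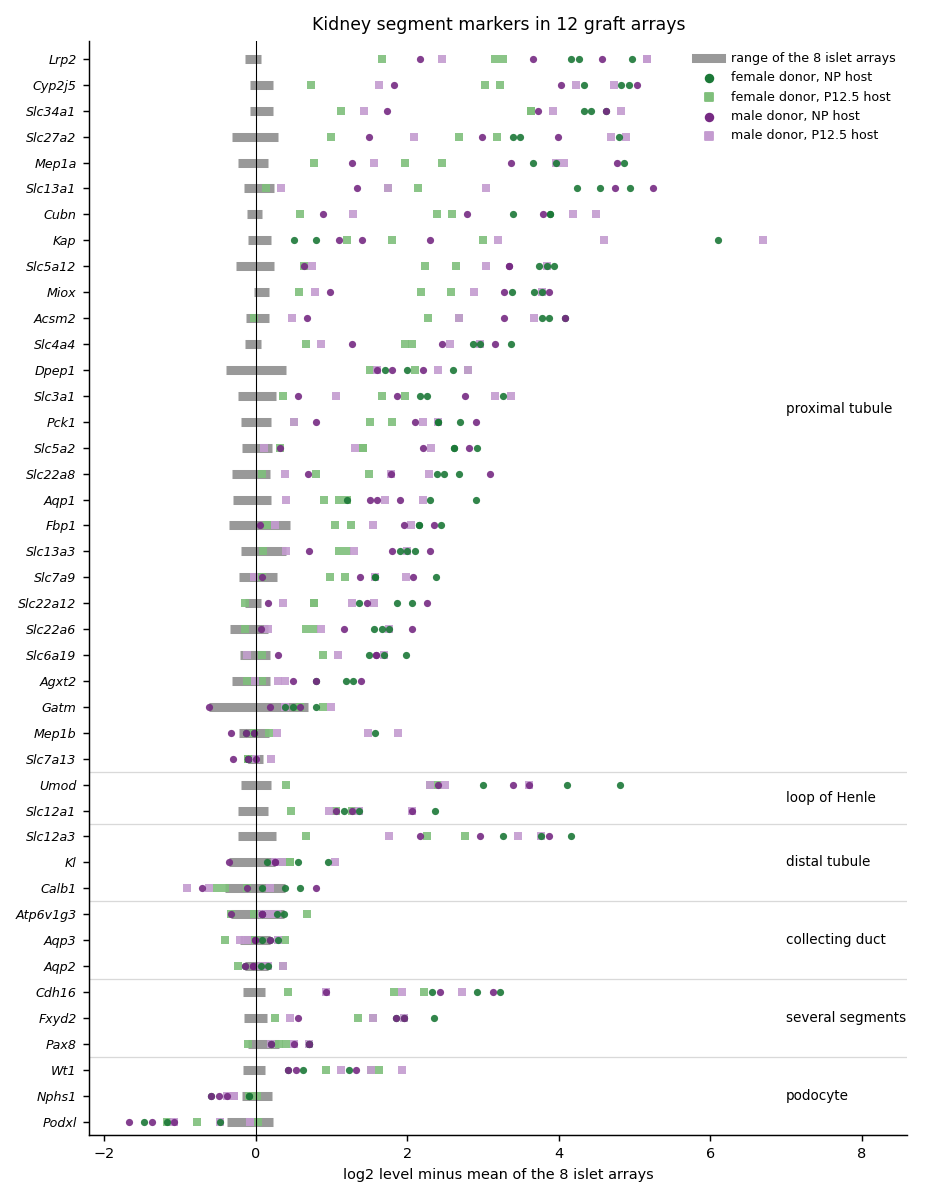
Log2 level of each measured marker in the 12 graft arrays, minus its mean over the 8 islet arrays. Circles are grafts of NP hosts, squares grafts of P12.5 hosts, green female and purple male donors, and grey bars the range of the 8 islet arrays. The points of leading proximal tubule genes such as Slc34a1 spread over more than 3 log2 units, whereas those of the 3 collecting duct genes lie on or beside the bar.

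Among the phosphate, sulphate and dicarboxylate transporters, Slc34a1, the main phosphate cotransporter of the proximal brush border, stood at log2 levels of 5.8 to 6.1 (median 5.85) in the 8 islet arrays. In replicates 1, 2 and 3 it stood at 10.3, 10.2 and 10.5 in female NP grafts, 9.5, 7.0 and 9.5 in female P12.5 grafts, 7.6, 10.5 and 9.6 in male NP grafts and 10.7, 7.3 and 9.8 in male P12.5 grafts. No graft overlapped the islets, and 3 grafts, namely replicate 2 of female P12.5, replicate 1 of male NP and replicate 2 of male P12.5, lay apart from the other 9, with no value between 7.6 and 9.5. The difference was 3.5 ± 0.42 (SE, 11.3-fold, adjusted p = 6.9e-06, limma). Slc13a1, the sulphate cotransporter, stood at 4.0 to 4.4 (median 4.1) in islets, at 8.7, 9.1 and 8.4 in female NP grafts, 6.3, 4.3 and 5.9 in female P12.5 grafts, 5.5, 9.4 and 8.9 in male NP grafts and 7.2, 4.5 and 5.9 in male P12.5 grafts. Its difference was 2.85 ± 0.43 (adjusted p = 6.19e-05), and only the lowest graft reached into the islet range. Slc13a3, which carries dicarboxylates such as succinate, rose by 1.41 ± 0.21.

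The endocytic receptors that retrieve filtered protein, Lrp2 (megalin) and Cubn (cubilin), were clear of the islet range in all 12 grafts. Lrp2 stood at 5.0 to 5.2 in islets, at 10.1, 9.3 and 9.4 in female NP, 8.4, 6.8 and 8.3 in female P12.5, 7.3, 9.7 and 8.8 in male NP and 10.3, 7.6 and 10.3 in male P12.5 grafts. Its difference of 3.72 ± 0.34 (13.2-fold, adjusted p = 4.1e-07) was the largest of the 42. Cubn stood at 4.4 to 4.6 in islets and at 8.4, 7.9 and 8.4, at 7.1, 5.1 and 6.9, at 5.4, 8.3 and 7.3, and at 9.0, 5.8 and 8.7 in the same order of groups (difference 2.85 ± 0.40). The 3 arrays that were lowest for Slc34a1 were also the lowest for both receptors.

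Both transporters of glucose and lactate rose. Slc5a2 (SGLT2), which reclaims filtered glucose, was measured at 5.7 to 6.1 in islets, 8.8, 8.5 and 8.5 in female NP, 7.3, 6.2 and 7.3 in female P12.5, 6.2, 8.7 and 8.1 in male NP and 8.2, 6.0 and 7.2 in male P12.5 grafts, so that 1 graft fell within the islet range. Slc5a12, a sodium-coupled lactate transporter, was at 4.3 to 4.8 in islets and reached 8.5 in grafts, with 5.2 as the lowest graft. The differences were 1.70 ± 0.29 for Slc5a2 and 2.66 ± 0.39 for Slc5a12.

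The basolateral organic anion transporters Slc22a6 (OAT1) and Slc22a8 (OAT3) and the apical urate transporter Slc22a12 (URAT1) rose by 1.03 ± 0.22, 1.66 ± 0.27 and 1.15 ± 0.22. Slc22a8 stood at 5.3 to 5.8 in islets, at 8.0, 8.1 and 8.3 in female NP, 7.1, 5.7 and 6.4 in female P12.5, 6.3, 8.7 and 7.4 in male NP and 7.9, 6.0 and 7.4 in male P12.5 grafts. Slc22a12 stood at 6.4 to 6.6 in islets and at 6.4 to 8.8 in grafts. For each of these genes the lowest graft was within the islet range.

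Amino acid transporters split. Slc3a1 and Slc7a9, the heavy and light subunits of the cystine transporter, and Slc6a19, the neutral amino acid transporter B0AT1, rose by 2.04 ± 0.31, 1.23 ± 0.26 and 1.01 ± 0.21. Slc3a1 was at 5.5 to 6.0 in islets and at 9.0, 7.9 and 8.0 in female NP, 7.7, 6.1 and 7.4 in female P12.5, 6.3, 8.5 and 7.6 in male NP and 8.9, 6.8 and 9.1 in male P12.5 grafts. Slc7a9 was at 4.7 to 5.2 in islets and 4.9 to 7.3 in grafts. Slc7a13, the cystine and acidic amino acid transporter of the late proximal tubule, stood at 4.4 to 4.6 in islets and 4.2 to 4.7 in grafts, a difference of -0.06 ± 0.05 (adjusted p = 0.376). Of the 12 grafts only replicate 2 of male P12.5 lay above the islet range, by 0.1, and the 3 grafts where Slc34a1 was highest stood at 4.4 to 4.5.

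Of the brush border peptidases, Mep1a, the alpha subunit of meprin, stood at 3.8 to 4.2 in islets, at 8.9, 7.7 and 8.0 in female NP, 6.5, 4.8 and 6.0 in female P12.5, 5.3, 8.8 and 7.4 in male NP and 8.0, 5.6 and 8.1 in male P12.5 grafts (difference 3.05 ± 0.39). Mep1b, the beta subunit, did not pass (0.39 ± 0.20, adjusted p = 0.133). It stood at 4.4 to 4.8 in islets, and 6.2 in replicate 1 of female NP, 6.1 and 6.5 in replicates 1 and 3 of male P12.5 and 4.3 to 4.9 in the other 9 grafts. Dpep1, the dipeptidase, was at 4.7 to 5.5 in islets and rose by 2.09 ± 0.18. It varied less among grafts than the transporters, with 7.1, 7.7 and 6.8 in female NP, 6.6, 7.2 and 7.9 in female P12.5, 6.7, 6.9 and 7.3 in male NP and 7.5, 6.7 and 7.9 in male P12.5 grafts, and replicate 2 of female P12.5 was not its lowest array.

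Metabolic enzymes rose with 2 exceptions. Cyp2j5, a renal epoxygenase, stood at 4.3 to 4.6 in islets, at 9.2, 8.7 and 9.3 in female NP, 7.6, 5.1 and 7.4 in female P12.5, 6.2, 9.4 and 8.4 in male NP and 9.1, 6.0 and 8.6 in male P12.5 grafts (3.54 ± 0.42, 11.6-fold). Slc27a2, a very long-chain acyl-CoA synthetase, stood at 5.5 to 6.1 in islets, at 10.6, 9.2 and 9.3 in female NP, 9.0, 6.8 and 8.5 in female P12.5, 7.3, 9.8 and 8.8 in male NP and 10.5, 7.9 and 10.7 in male P12.5 grafts (3.22 ± 0.38). Miox, which opens the inositol ring, rose by 2.64 ± 0.38, the acyl-CoA synthetase Acsm2 by 2.63 ± 0.44, and the gluconeogenic enzymes Pck1 and Fbp1 by 1.85 ± 0.26 and 1.45 ± 0.26. Gatm, the first enzyme of creatine synthesis, was at 8.4 to 9.7 in islets and 8.4 to 10 in grafts (0.47 ± 0.13). Agxt2, a mitochondrial aminotransferase, was at 5.4 to 5.9 and 5.6 to 7.1 (0.55 ± 0.10). Both had adjusted p under the threshold, at 0.00754 and 0.000563, and fell short of 1.5-fold.

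Of the genes for bicarbonate and water transport, Slc4a4, the basolateral bicarbonate cotransporter, stood at 6.0 to 6.2 in islets, at 9.1, 9.0 and 9.5 in female NP, 8.1, 6.8 and 8.2 in female P12.5, 7.4, 9.3 and 8.6 in male NP and 9.1, 7.0 and 8.7 in male P12.5 grafts (2.26 ± 0.26). Aqp1, the water channel of the proximal tubule that is also found in endothelium and red cells, stood at 5.7 to 6.2 in islets, at 8.9, 8.3 and 7.2 in female NP, 7.1, 6.9 and 7.2 in female P12.5, 7.6, 7.9 and 7.5 in male NP and 7.7, 6.4 and 8.2 in male P12.5 grafts (1.58 ± 0.21). Both stood clear of the islets in every graft.

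The promoters of the markers are shown as a description of sequence, and their part in the levels of the grafts was not tested. RefSeq promoter sequence on GRCm38.p6 was at hand for 33 of the 43 markers, and the 250 bases before the start site were searched on both strands for 5 letter strings. These were GTTAAT and GTTAATNAT, core letters of sites bound by the tubule and liver factor HNF1, CAAAGTCCA and GGTCAAAG, letters of sites bound by HNF4, and TATAAA, the TATA box, where every match of GTTAATNAT is also a match of the shorter string. The shorter string occurred in 8 of the 33 markers (24.2%) and in 7.49% of 27025 genes with a promoter, and the 8 comprised 6 of 24 proximal tubule genes and 2 of 9 others. GTTAATNAT occurred in 0 of 33 markers (0.866% of genes), CAAAGTCCA in 2 (0.451%, Agxt2 and Slc3a1), GGTCAAAG in 3 (0.973%, Cyp2j5, Mep1a and Slc27a2) and TATAAA in 9 (14.3%). Windows of 110 bases follow for 5 markers with GTTAAT or its complement, which stand in capitals, with 4 transporters or enzymes of the proximal tubule and the loop gene Umod, each read 5′ to 3′ on the strand of its gene.
Slc34a1, chr13:55399532-55399641, plus strand: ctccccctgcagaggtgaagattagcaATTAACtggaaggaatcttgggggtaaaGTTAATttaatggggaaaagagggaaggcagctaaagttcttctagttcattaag
Slc22a6, chr19:8617885-8617994, plus strand: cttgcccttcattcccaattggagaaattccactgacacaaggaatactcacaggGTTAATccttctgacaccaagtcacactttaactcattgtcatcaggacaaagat
Slc22a8, chr19:8593046-8593155, plus strand: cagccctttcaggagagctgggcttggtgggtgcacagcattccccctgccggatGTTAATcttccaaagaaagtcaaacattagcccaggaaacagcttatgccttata
Miox, chr15:89334276-89334385, plus strand: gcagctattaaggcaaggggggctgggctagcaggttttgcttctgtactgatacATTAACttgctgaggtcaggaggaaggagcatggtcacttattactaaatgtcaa
Umod, chr7:119479403-119479512, minus strand: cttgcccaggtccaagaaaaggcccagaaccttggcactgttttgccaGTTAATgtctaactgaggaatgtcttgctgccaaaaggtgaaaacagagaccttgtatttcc
Slc34a1 held 2 matches and the other 4 held 1 each. Counted from the start site, the match began at position -202 in Umod, the most distant of the 5, and at -56 in Slc22a6. A match of letters is a description of the sequence and does not show that a factor binds there.

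Both genes of the loop of Henle were clear of the islets. Umod, which encodes uromodulin, the protein that thick ascending limb cells shed into urine, stood at 5.2 to 5.6 in islets, at 10.2, 8.4 and 9.5 in female NP, 7.7, 5.8 and 7.8 in female P12.5, 7.8, 8.8 and 9.0 in male NP and 9.0, 7.7 and 7.9 in male P12.5 grafts (2.90 ± 0.27, 7.46-fold, adjusted p = 4.9e-07). Slc12a1 (NKCC2), the salt cotransporter of the same cells, stood at 4.5 to 4.9 in islets, at 7.1, 5.9 and 6.1, at 5.8, 5.2 and 6.0, at 6.0, 6.8 and 5.8, and at 6.8, 5.7 and 6.1 in the same order of groups (1.37 ± 0.18). Replicate 2 of female P12.5 was the lowest graft for both genes.

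In the distal tubule 1 of the 3 genes rose. Slc12a3 (NCC), the thiazide-sensitive salt cotransporter, stood at 5.7 to 6.2 in islets, at 10.1, 9.2 and 9.7 in female NP, 8.2, 6.6 and 8.7 in female P12.5, 8.1, 8.9 and 9.8 in male NP and 9.7, 7.7 and 9.4 in male P12.5 grafts (2.90 ± 0.29, 7.49-fold, adjusted p = 8.57e-07). Calb1, a calcium-binding protein gene that islets express too, stood at 6.7 to 7.5 in islets and at 7.7, 7.2 and 7.5, at 6.6, 6.7 and 7.0, at 6.4, 7.0 and 7.9, and at 7.3, 6.5 and 6.2 in the same order (-0.11 ± 0.17, adjusted p = 0.623). Kl (klotho), a co-receptor for the phosphate hormone FGF23, stood at 7.1 to 7.7 in islets and at 8.0, 7.6 and 8.4, at 7.9, 7.8 and 7.9, at 7.1, 7.7 and 7.7, and at 8.5, 7.8 and 7.7 in grafts (0.39 ± 0.12, 1.31-fold, adjusted p = 0.0151). The grafts overlapped the islets for Calb1 and Kl.

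The collecting duct genes did not differ by as much as 1.5-fold in any of the 5 contrasts of grafts with islets. Aqp2, the vasopressin-regulated water channel, stood at 6.5 to 6.8 in islets and at 6.8, 6.7 and 6.5 in female NP, 6.7, 6.4 and 7.0 in female P12.5, 6.5, 6.6 and 6.6 in male NP and 7.0, 6.7 and 6.8 in male P12.5 grafts (0.05 ± 0.07, adjusted p = 0.581). Aqp3, its basolateral counterpart, stood at 6.2 to 6.6 in islets and at 6.7, 6.5 and 6.6, at 6.4, 6.0 and 6.8, at 6.4, 6.6 and 6.4, and at 6.7, 6.3 and 6.2 in grafts (0.05 ± 0.10). Atp6v1g3, a proton pump subunit of intercalated cells, stood at 4.5 to 5.2 in islets and at 5.2, 4.9 and 5.1, at 4.8, 4.5 and 5.5, at 4.5, 4.9 and 4.9, and at 5.1, 4.9 and 5.0 in grafts (0.12 ± 0.12). An interval of 2 SE on either side of these differences stays below 1.5-fold, so the arrays limited a common change of these 3 probe sets to less than that.

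Of the genes of several segments, Fxyd2, the gamma subunit of the sodium pump, stood at 5.4 to 5.7 in islets and at 7.9, 7.4 and 7.5 in female NP, 6.9, 5.8 and 7.1 in female P12.5, 6.1, 7.5 and 7.4 in male NP and 7.5, 6.0 and 7.1 in male P12.5 grafts (1.47 ± 0.21). Cdh16, kidney-specific cadherin, stood at 5.4 to 5.7 in islets and at 8.8, 7.9 and 8.5, at 7.4, 6.0 and 7.8, at 6.5, 8.7 and 8.0, and at 8.3, 6.5 and 7.5 in the same order (2.08 ± 0.28, 4.24-fold). Pax8, a transcription factor gene of the whole nephron epithelium, stood at 5.6 to 6.0 in islets and at 6.4, 5.9 and 6.4, at 6.1, 5.6 and 6.0, at 5.9, 6.4 and 6.2, and at 6.2, 5.9 and 6.4 in grafts (0.42 ± 0.09, 1.33-fold, adjusted p = 0.00193), which fell short of 1.5-fold. The first 2 were clear of the islets in all 12 grafts.

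The 3 podocyte genes went separate ways. Nphs1 (nephrin), the slit diaphragm protein gene and the most cell-restricted of them, stood at 5.7 to 6.1 in islets and at 5.8, 5.8 and 5.3 in female NP, 5.8, 5.6 and 5.9 in female P12.5, 5.4, 5.3 and 5.5 in male NP and 5.6, 5.6 and 5.5 in male P12.5 grafts (-0.30 ± 0.07, 1.23-fold lower, adjusted p = 0.00437). Podxl, a sialomucin gene that podocytes share with endothelium, was the only marker called down. It stood at 7.6 to 8.2 in islets and at 7.5, 6.8 and 6.5, at 6.8, 7.2 and 8.0, at 6.9, 6.3 and 6.6, and at 7.5, 6.9 and 7.9 in grafts (-0.90 ± 0.16, 1.87-fold lower, adjusted p = 0.000323). In the same comparison 7 of 14 endothelial markers were called down and 0 up, with an array mean of 7.51 to 7.73 in islets and 6.47 to 7.84 in grafts, and their part in the Podxl result was not tested. Wt1, a transcription factor gene of podocytes and of mesothelium, stood at 5.6 to 5.9 in islets, at 7.0, 6.4 and 6.2 in female NP, 7.4, 6.7 and 7.3 in female P12.5, 7.1, 6.3 and 6.2 in male NP and 7.3, 6.9 and 7.7 in male P12.5 grafts (1.10 ± 0.14, 2.14-fold, adjusted p = 1.22e-05). Wt1 was clear of the islets in all 12 grafts while Nphs1 was not raised in any. In the same comparison 14 of 17 markers of fibroblasts, pericytes and mesothelium were called up and 0 down. Their part in the Wt1 result was not tested.

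A longer list held 106 other kidney genes, 95 of them measured. In all grafts against islets 34 were called up and 0 down, with 24 of 45 in the proximal tubule, 3 of 10 in the loop of Henle, 2 of 10 in the distal tubule, 3 of 18 in the collecting duct, 1 of 6 in podocyte and glomerulus and 1 of 6 in several segments. The largest proximal differences were those of Keg1 (2.70 ± 0.36), the endocytic adaptor Dab2 (2.53 ± 0.18) and the protease Napsa (2.38 ± 0.33). Dab2 stood at 8.0, 8.7 and 7.9 in the 3 grafts lowest for Slc34a1 and at 8.4 to 9.8 in the others. The part of other cells in the Dab2 level was not tested. In the loop they were those of the paracellular channel Cldn10 (1.53 ± 0.13), the potassium channel Kcnj1 (1.27 ± 0.21) and Egf (0.91 ± 0.16), and in the distal tubule those of the potassium channel Kcnj16 (1.83 ± 0.27) and the calcium-binding S100g (0.87 ± 0.21), with Trpm6 (0.52 ± 0.10) not reaching 1.5-fold. Atp6v0d2 (1.89 ± 0.15), the pendrin gene Slc26a4 (0.69 ± 0.17) and Gata3 (0.63 ± 0.11) were the 3 called of the collecting duct. Of the 18 collecting duct genes, 14 had an unadjusted limma p under 0.05, where 17872 of 35511 probe sets did. The median difference of the 18 was 0.27, with 13 above 0 and 5 below. Atp6v0d2 is also a proton pump subunit gene of osteoclasts and macrophages. Gata3 was highest, at 6.7, in replicate 1 of male NP, where Cd3g of the immune markers was also highest, at 8.9. The part of immune cells in the Gata3 level was not tested. Plce1 (0.95 ± 0.19) was called among podocyte genes, whereas Cdkn1c (0.51 ± 0.10) and Nes (-0.48 ± 0.10) did not reach 1.5-fold. Cldn2 (1.15 ± 0.20) was called among genes of several segments, and Ehf (0.28 ± 0.09) and Cdh6 (0.14 ± 0.09) were not.

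Markers of other cells moved in the same contrast. Of the immune markers 16 of 18 and of the stromal markers 14 of 17 were called up, and 15 of 15 acinar markers were called down, with an array mean of 8.0 to 10.2 in islets and 5.02 to 5.37 in grafts. Of 17 islet endocrine genes none was called, with an unadjusted p under 0.05 for 9 and a median difference of -0.20. Ins2 stood at 10.2 to 11 in islets and 10.8 to 11 in grafts, and Gcg at 12.8 to 13.8 and 13.3 to 13.7. The part of these cells in the level of any kidney marker was not tested.

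The grafts differed from each other more than the islets did. The mean level of the 28 proximal genes ran from 5.38 to 5.48 over the 8 islet arrays and from 5.92 to 8.42 over the 12 grafts. Of the 42 markers, 28 spanned more than 2 log2 units between the lowest and the highest graft, 13 more than 3 and 6 more than 4. Replicate 2 of female P12.5 was the lowest graft, alone or tied, for 26 of the 42 markers, and replicate 1 of female NP and replicate 2 of male NP were the highest for 12 and 11. The spread was present within groups: the proximal mean was 8.42, 7.91 and 7.91 in female NP grafts, 7.18, 5.92 and 6.97 in female P12.5 grafts, 6.20, 8.22 and 7.57 in male NP grafts and 8.20, 6.23 and 7.91 in male P12.5 grafts. For the collecting duct the mean ran from 5.77 to 6.10 in islets and from 5.63 to 6.43 in grafts.

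**Figure D2:**
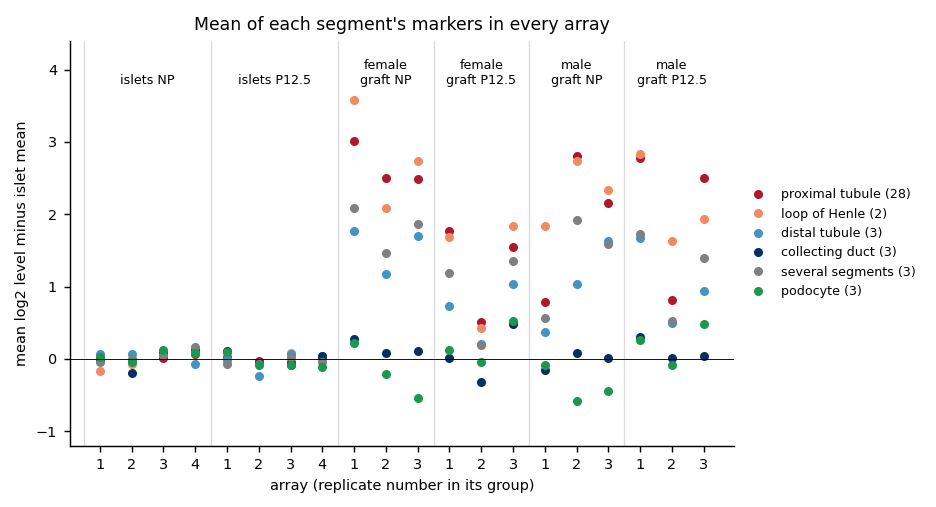
Mean log2 level of each segment's measured markers in every array, minus their mean over the 8 islet arrays, with the number of genes of each segment in brackets. Proximal tubule, loop of Henle, distal tubule and several-segment genes were low together in replicate 2 of female P12.5 grafts. The proximal, distal tubule and several-segment genes were also low in replicate 1 of male NP and replicate 2 of male P12.5 grafts. Collecting duct genes stayed within 0.5 of the islet mean.

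Correlations between segments were read only within the 9 grafts above the gap in Slc34a1, since the 3 low arrays form a separate cluster. Those 3 arrays also had the lowest distal tubule and several-segment means of all grafts. This did not hold for the loop of Henle. Over those 9 grafts Slc34a1 correlated with Umod at Pearson's r = 0.645 (exact permutation p = 0.0649) and Spearman's rho = 0.692 (p = 0.0443). The values for Slc12a3 were r = 0.492 (exact permutation p = 0.179) and rho = 0.46 (p = 0.212), for Aqp2 r = -0.102 (p = 0.789) and rho = -0.132 (p = 0.73), and for Nphs1 r = -0.465 (p = 0.204) and rho = -0.552 (p = 0.126). All tests were two-sided, and none of the 4 relations passed after Benjamini-Hochberg adjustment, with exact permutation adjusted p of 0.26 to 0.789 for r and 0.177 to 0.73 for rho. Without the 2 arrays farthest from the median of Slc34a1, r was 0.37 for Umod, -0.112 for Slc12a3, 0.217 for Aqp2 and -0.0981 for Nphs1. With 5 NP and 4 P12.5 grafts left above the gap, neither state alone had the 6 samples needed for a value of its own.

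Genes outside the lists were ranked by how closely they tracked the proximal markers. Over the 12 grafts the 10 genes with the highest Pearson's r to the mean of the 28 proximal markers were Cyp4a31, Slc1a1, Tinag, Mettl7b, Hgd, Adhfe1, Apob, Ugt3a2, Pdzk1 and Cideb, with r of 0.974 to 0.994, and 0.884 to 0.978 over the 9 grafts above the gap. These r describe arrays that fall into clusters and share normalization, and carry no test. Slc1a1 encodes a glutamate transporter and Pdzk1 a scaffold of apical transporters. Cyp4a31, an omega-hydroxylase gene, stood at 3.4 to 4.1 in islets and 3.9 to 7.3 in grafts, 2.05 log2 units higher on average. It was picked for its r with markers that were high in the grafts, so no test of this difference is given.

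By group, the number of markers called against the islets of the same state varied from 8 to 33. In female NP grafts 32 rose and 1 fell, where 5.99% of all probe sets were called up and 5.02% down. In male NP grafts 28 rose and 1 fell (5.94% up and 5.25% down overall), and in male P12.5 grafts 25 rose and 0 fell (4.7% and 2.56%), with 14 to 32 called when each array was left out in turn (15 without replicate 1, 32 without replicate 2 and 14 without replicate 3 of that group). In female P12.5 grafts 8 rose and 0 fell (2.83% and 1.22%), namely Slc34a1, Lrp2, Dpep1, Slc27a2, Slc4a4, Umod, Slc12a3 and Wt1. The 2 comparisons of each state share their islet arrays. Slc34a1 differed from islets by 4.48 ± 0.71 in female NP, 2.77 ± 0.71 in female P12.5, 3.38 ± 0.71 in male NP and 3.37 ± 0.71 in male P12.5 grafts. The count of 8 for female P12.5 grafts depended on single arrays, from 2 without replicate 3 of that group to 17 without replicate 2 of male P12.5, and was 20 with array weights and 20 when only the arrays of the 2 groups entered the fit.

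Pregnancy of the host was compared within grafts, to see whether kidney markers differ between the states that the study compares. In grafts of both donor sexes (6 P12.5 against 6 NP arrays) 0 of 42 markers were called up and 2 down, Slc13a1 and Agxt2, against 1.97% up and 2.0% down over all probe sets. A negative difference was seen for 31 markers and a positive one for 11, with a median of -0.61 (0.02 over all probe sets). The count of 2 depended on single arrays, from 1 without replicate 2 of male P12.5 or without replicate 2 or 3 of male NP to 4 without replicate 1 of female NP and 10 without replicate 1 of male NP, Wt1 being called up in the last, and was 4 with low probe sets left out. Agxt2, the mitochondrial aminotransferase, had groups that did not overlap: it stood at 6.9, 6.5 and 7.0 in female NP, 6.2, 7.1 and 6.5 in male NP, 5.6, 5.8 and 5.7 in female P12.5 and 6.1, 5.7 and 6.0 in male P12.5 grafts (-0.88 ± 0.15, adjusted p = 0.00712). It was the only marker of the 42 without overlap, a smaller share than the 4.17% of all probe sets without overlap in either direction. Its lowest NP value, 6.2, and its highest P12.5 value, 6.1, were adjacent at the rounding of the data. Slc13a1, whose values are given above, fell by 2.65 on the log2 scale (SE 0.67, adjusted p = 0.0276), with 1 NP graft, replicate 1 of male donors, below 4 of the P12.5 grafts. In non-transplanted islets Agxt2 was at 5.6 to 5.9 in NP and 5.4 to 5.8 in P12.5, and Slc13a1 at 4.1 to 4.4 and 4.0 to 4.3.

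**Figure D3:**
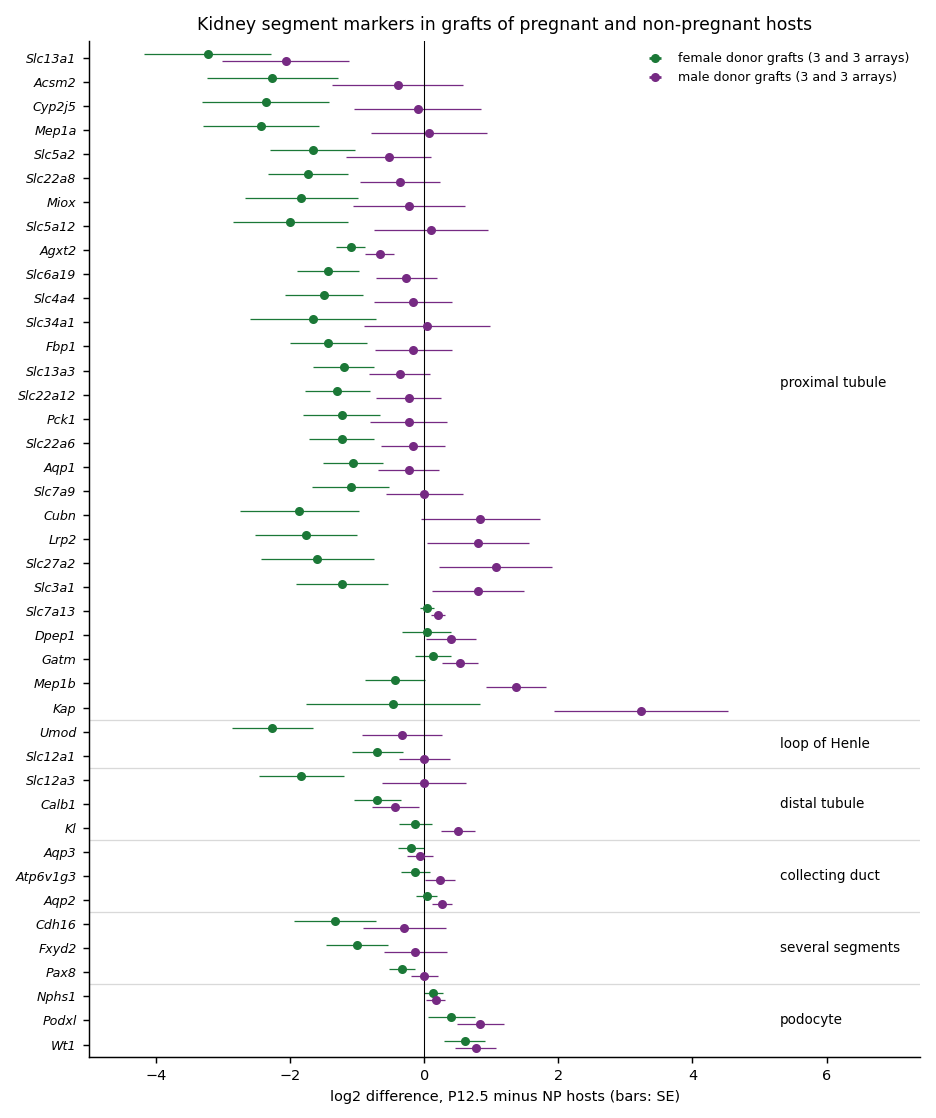
Log2 difference of each measured marker between grafts of P12.5 and NP hosts, with bars of 1 SE, for female (green) and male (purple) donors, 3 against 3 arrays each. Female grafts lie left of 0 for 35 of the 42 markers and male grafts on both sides of it, with SE of about 0.9 for genes such as Slc34a1, and Slc13a1 and Agxt2 lie left of 0 in both.

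Slc13a1 fell relative to Slc34a1. Slc34a1, another sodium-coupled anion transporter, differed by -0.82 ± 0.66 (adjusted p = 0.43), Lrp2 by -0.48 ± 0.54, Cyp2j5 by -1.23 ± 0.67, Mep1a by -1.18 ± 0.61 and Acsm2 by -1.33 ± 0.69, and none of these passed. The log2 level of Slc13a1 minus that of Slc34a1 was read in each graft. It was -2.1 to -0.7 (median -1.35) in the 6 NP grafts. In the 6 P12.5 grafts it was -3.9 to -2.7 (median -3.35), without overlap. For Agxt2 this difference from Slc34a1 overlapped, at -3.7 to -1.4 in NP and -4.6 to -1.2 in P12.5 grafts. It also overlapped for Kap, Umod, Slc12a3, Cubn and Lrp2. No other marker was read in this way, and the share of all genes without overlap was not counted. Whether the shift is particular to Slc13a1 was therefore not tested. When the Slc34a1 level was added to the fit as a covariate, an alternative chosen after seeing the data, Slc13a1 was lower by -1.90 ± 0.31 (adjusted p = 0.0117) and Agxt2 by -0.78 ± 0.14 (adjusted p = 0.0171), and both were called among 1.37% of probe sets called down. They were the only 2 markers called in that fit. Slc13a3 (-0.40 ± 0.09, adjusted p = 0.0349) and Acsm2 (-0.49 ± 0.13, adjusted p = 0.0498) passed the adjusted p and fell short of 1.5-fold. In that limma fit 15 markers, higher or lower, had an unadjusted p under 0.05, so a fall relative to Slc34a1 was not particular to the 2 called. The call of Slc13a1 without the covariate was lost when any of 5 arrays was left out (replicate 2 of female NP, of female P12.5 and of male P12.5, and replicates 2 and 3 of male NP), with values from -2.28 to -2.56.

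**Figure D4:**
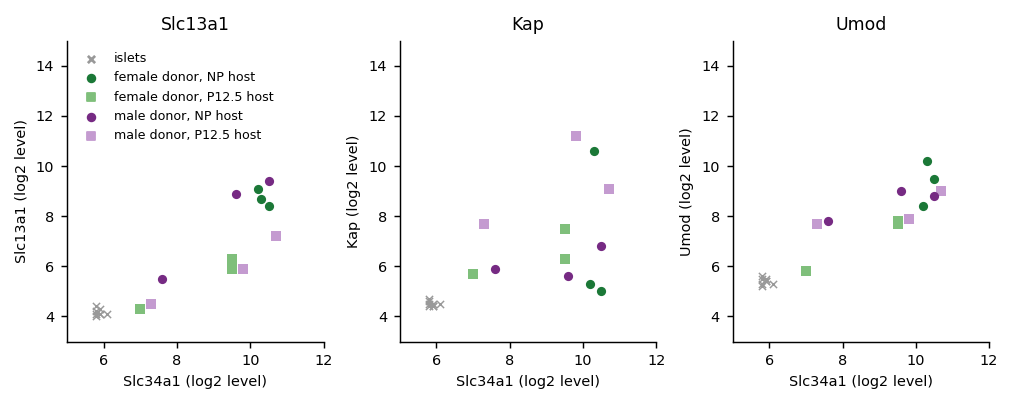
Log2 levels of Slc13a1, Kap and Umod against that of Slc34a1 in the 12 grafts (circles NP, squares P12.5, green female and purple male donors) and the 8 islet arrays (grey crosses). Slc13a1 lies lower in P12.5 than in NP grafts at like Slc34a1 levels, Kap does not follow Slc34a1, and Umod is lowest in the islets and in the graft with the lowest Slc34a1.

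Split by donor sex, the comparison of states gave 1 call in female and 0 in male grafts. In female grafts 35 of 42 markers were lower in P12.5 hosts (median -1.23 over the markers and 0.03 over all probe sets). The groups did not overlap for 27 of them, where 21.1% of all probe sets had groups that did not overlap. Only Agxt2 was called (-1.10 ± 0.21, adjusted p = 0.0335), where 0.836% of probe sets were called up and 0.859% down, and its call was lost without any of 5 of the 6 female arrays. Slc13a1 differed by -3.23 ± 0.95 (adjusted p = 0.0952), Mep1a by -2.43 ± 0.86 (adjusted p = 0.14), Umod by -2.27 ± 0.60 (adjusted p = 0.0734), Slc12a3 by -1.83 ± 0.63 (adjusted p = 0.131) and Slc34a1 by -1.67 ± 0.94 (adjusted p = 0.337). In male grafts limma called 0 of 42 (unadjusted p under 0.05 for 5), the median was 0.00, and 0.479% and 0.453% of probe sets were called up and down. Between male P12.5 and NP grafts 4 markers did not overlap, where 18.1% of all probe sets did not. These were Agxt2 (-0.67 ± 0.21), Mep1b (1.37 ± 0.45), Kap (3.23 ± 1.30) and Aqp2 (0.27 ± 0.15). The test of whether the response differed between donor sexes gave 0 calls among the markers (limma, unadjusted p under 0.05 for 4) and 0.0% of probe sets. The difference, male minus female response, was above 0 for 42 of 42 markers, with a median of 1.08 (-0.03 over the 19938 genes measured). The markers share their arrays and are not independent.

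No kidney marker was called for the sex of the donor. Male minus female donor gave 0 of 42 calls in NP hosts (unadjusted p under 0.05 for 0, median -0.62, 0.0141% of probe sets called) and 0 of 42 in P12.5 hosts (unadjusted p under 0.05 for 1, Mep1b, median 0.45, 0.0113% called). With 3 arrays a side the SE for Slc34a1 was 0.94 log2 units, and a donor difference of that size was not detectable.

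In non-transplanted islets the only marker called between states was Gatm, which stood at 8.4 to 8.7 in NP and 9.3 to 9.7 in P12.5 islets (0.98 ± 0.11, adjusted p = 0.00328), where 0.614% of probe sets were called up and 0.11% down. In female grafts Gatm stood at 9.4, 9.5 and 9.8 in NP and 9.9, 9.6 and 9.6 in P12.5 hosts, and in male grafts at 8.4, 9.6 and 9.2 and at 10, 9.4 and 9.4, which did not pass in either (0.13 ± 0.27 and 0.53 ± 0.27). Fbp1 differed by -0.50 ± 0.09 (adjusted p = 0.0368) and fell short of 1.5-fold. The test of whether the pregnancy response differed between grafts and islets called 0 of 42 markers (limma, unadjusted p under 0.05 for 7) and 0.746% of all probe sets. The smallest adjusted p among the markers was 0.0836, for Agxt2, and that of Slc13a1 was 0.133.

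Kap did not follow Slc34a1. Kap encodes the androgen-regulated protein of the mouse proximal tubule, and it stood at 4.4 to 4.7 in islets, at 10.6, 5.3 and 5.0 in female NP, 7.5, 5.7 and 6.3 in female P12.5, 5.9, 6.8 and 5.6 in male NP and 9.1, 7.7 and 11.2 in male P12.5 grafts (all grafts minus islets 2.73 ± 0.58, adjusted p = 0.00136). All grafts lay above the islets, but replicates 2 and 3 of female NP, where Slc34a1 was at 10.2 and 10.5, had the lowest Kap levels of the 12. Replicate 1 of female NP and replicates 1 and 3 of male P12.5 were the 3 highest. The difference between states was 1.38 ± 0.92 over all grafts (adjusted p = 0.331), and it was 2.29 (adjusted p = 0.0314, called) without replicate 1 of female NP.

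The genes that shared this order were looked for after the Kap values had been seen, so the counts are a description. The 3 grafts are those where Kap was highest, so Kap is left out of the counts. In 4 of the other 27 proximal markers, namely Lrp2, Mep1b, Slc27a2 and Slc3a1, and in 8 of 45 other proximal genes each of those 3 grafts lay above each of the other 9, against 66 of the other 19937 genes (0.331%). None of the 17 stromal or 18 immune markers and 1 of 14 endothelial markers, Egfl7, did so. Lists that short cannot set a count of 0 apart from 0.331%. The mean of the proximal markers was 8.42, 8.20 and 7.91 in those 3 grafts, and 8.22 in replicate 2 of male NP. The part of kidney content in this order was not tested. The 8 other proximal genes were Aadat, Ace, Mme, Napsa, Slc17a3, Slc22a7, Slc22a13 and Slc22a19. Slc22a19 stood at 3.7 to 4.0 in islets, at 7.9, 4.3 and 4.2 in female NP, 5.4, 4.2 and 5.3 in female P12.5, 4.2, 5.2 and 4.2 in male NP and 7.8, 5.3 and 8.2 in male P12.5 grafts. Slc22a7 stood at 5.3 to 5.7 in islets, at 7.6, 7.3 and 7.8 in those 3 grafts and at 5.1 to 6.0 in the other 9, and Slc22a13 at 6.2 to 6.6, at 8.1, 7.7 and 8.0 and at 6.1 to 6.7. Aadat, a kynurenine aminotransferase gene, and Napsa stood highest in the same arrays, at 8.2 and 9.8 in replicate 3 of male P12.5. Ace and Mme encode peptidases of the brush border.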

How the data were processed

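Total RNA of 20 samples was hybridised to Affymetrix MoGene 1.0 ST arrays. The authors preprocessed the raw files with robust multichip analysis in the aroma.affymetrix package of R and deposited log2 expression levels per probe set, with normalization between arrays and rounded to 1 decimal. The genome build behind the probe sets is not given in the sources used here. Rounding and quantile normalization compress small differences and low levels. No detection calls were used, so a low level cannot be told from background. Array numbers, 3 or 4 per group, limit the precision.

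Samples were grouped by their titles. Of 35511 probe sets, 21789 had 1 gene symbol, 1621 several and 12101 none in the platform annotation, and each gene was represented by the brightest of the probe sets that carry its symbol alone. Linear models were fitted to all 35511 probe sets with limma 3.58.1 in R 4.3.3 (lmFit, eBayes), with Benjamini-Hochberg adjustment over all of them. A gene was called at an adjusted p under 0.05 and a fold change of at least 1.5, as the study's methods set. Grafts against islets used all 20 arrays, comparisons within grafts the 12 graft arrays and within islets the 8 islet arrays, with groups as the only term. Errors of differences are SE of these fits. Correlations used exact permutation of the arrays (Python 3.11.15, numpy 2.4.6). On simulated data of 35511 probe sets, 100 were changed by 1 and 100 by 2 log2 units. For grafts against islets 95% of changes of 1 log2 unit and 100% of changes of 2 were called. For P12.5 against NP in all grafts 84% and 98% were called. The changed probe sets were drawn from all 35511, with noise independent between probe sets. The median SE over all probe sets was 0.107 for P12.5 against NP in all grafts. Slc34a1, Kap and other markers had larger SE and share their low arrays, so these rates do not hold for them.

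Alternatives were subtraction of array medians, renewed quantile normalization, leaving out low probe sets, array weights, a mean-variance trend, the mean of all probe sets of a gene, replicate numbers as a block, only the arrays of the groups compared, each array left out in turn, and, chosen after seeing the data, Slc34a1 as a covariate, an interaction of transplantation with pregnancy, and correlations over 9 grafts. The markers and lists were chosen with earlier results of these data known. By rule, values in every array were given for segment genes and for the 2 genes of each proximal role with the largest change of grafts against islets, of other kidney genes the 3 largest changes per segment, and the 10 genes most alike to the proximal mean. Ins1, which the rule also named, had no single-symbol probe set. The other genes named in the closing paragraph on Kap were chosen after their values were seen. Promoters came from a RefSeq table on GRCm38.p6.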

Additional observations from a re-analysis of the deposited data

Results flagged for a closer look

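In 10 of 84 sets of 4 islet arrays, 1 array stood apart from the other 3, which agreed to the decimal at which the values are rounded. Chance alone sets about 1 in 20 groups apart, and equal rounded values make it more frequent. In NP islets these were Calb1 at 6.9 (the other 3 at 7.5), Slc13a1 at 4.4, Pax8 at 6.0, Lrp2 at 5.1, Cubn at 4.5 and Slc22a12 at 6.5. In P12.5 islets they were Slc27a2 at 5.5, Miox at 5.2, Aqp2 at 6.8 and Pax8 at 5.7. The range was 0.6 for Calb1 and 0.1 to 0.3 for the others.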

How the results depend on the processing

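The count of 31 markers called in all grafts against islets was within 1.5 times under every alternative run. That of female P12.5 grafts was not: 8 markers were called, against 20 with array weights, 20 with only the arrays of the groups compared and 5 with the replicate block, and 2 to 17 when each array was left out in turn. Leaving out each array gave 14 to 32 markers for male P12.5 grafts (15 without replicate 1 and 14 without replicate 3 of that group), 0 to 3 for the difference between graft and islet response (3 without replicate 1 of male NP), which was 2 with array weights, 0 to 2 for P12.5 against NP in female grafts, 1 to 10 in all grafts and 1 to 2 in islets (2 without NP replicate 4, where Calb1 was added). The 10 in all grafts came without replicate 1 of male NP and comprised Slc13a1, Agxt2, Slc13a3, Slc5a2, Slc22a8, Slc22a12, Slc6a19, Fbp1, Umod and Wt1. With low probe sets left out the calls were 2 in female and 4 in all grafts, with the replicate block 0 in female and 2 in all grafts, and with Slc34a1 as a covariate 0 in female grafts. No call was reversed.

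Replicate numbers are shared between groups. Of 46 pairs of arrays with the same number, 7 had a correlation of residuals over 0.1 (-0.289 to 0.375). The highest was between replicates 3 of female and male P12.5 grafts. Pairs with different numbers were not compared, so these values do not settle whether the numbers pair the samples. With the block, Slc13a1 in all grafts had adjusted p = 0.0509 and Agxt2 in female grafts 0.0686, both above the threshold of 0.05. Wt1 was called up in P12.5 grafts under 6 alternatives, at up to 0.83, and Umod down under 4. The cause of these changes was not tested. The 4 correlations with Slc34a1 did not pass under any alternative.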
